A study of Rattus norvegicus with 2 samples.

Results

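Prostaglandin synthesis and receptor genes were measured in fetal rat skin at 2 stages, and 10 genes were examined: Ptgs1, Ptgs2, Ptges, Ptgds, Ptgis, Hpgd, Ptger1, Ptger2, Ptger3 and Ptger4. They were found by their gene name among the spots of the array that are not controls, and all 10 were present, on 11 probes and 29 spots per array, among 18346 named genes in all. The E19 group was skin of Sprague Dawley rat fetuses at day 18.5, with 3 samples combined into 1 RNA pool, and the E16 group was skin of Sprague Dawley fetuses at day 16.5, with 4 samples combined into 1 RNA pool. Neither group carried a treatment, and the labels name no body site. Both pools were hybridised together to 2 dye-swapped Agilent arrays, with E19 in Cy5 on one and in Cy3 on the other, so each stage was represented by 1 pool and no stage difference has a replicate check.

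Prostaglandins are short-lived lipid signals made from arachidonic acid. A cyclooxygenase turns arachidonic acid into prostaglandin H, a terminal synthase turns that into prostaglandin E, D or prostacyclin, and a dehydrogenase inactivates the product. Prostaglandin E acts on the EP receptors of nearby cells, and in skin it is known for its part in inflammation, wound repair and epidermal growth.

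The genes of this pathway were not shifted together between the stages. Ptges, the inducible synthase of prostaglandin E, was 2.85-fold higher in E19, and Ptgds, the lipocalin-type synthase of prostaglandin D, was 4.19-fold higher in E16. The inducible cyclooxygenase gene Ptgs2 was lower in E19 on both arrays but by less than 2-fold. Under some alternative settings Ptgs2 passed 2-fold on 1 of them. The gene of the inactivating dehydrogenase, Hpgd, was past 2-fold on 1 array. The genes of the EP receptors were within 2-fold on both arrays or not detected.

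Values below are log2 ratios of E19 over E16, with the array that carried E19 in Cy5 given first and the array that carried E19 in Cy3 second. The mean of both is given ± the SD of the 2 arrays, a technical error that leaves out differences between fetuses. A gene was called higher in E19 or in E16 if it passed 2-fold in that direction on each array. A gene counted as detected when Feature Extraction, the scanner program, marked it well above background for at least 1 pool on both arrays. Of the 10 genes, 9 were detected, and 1 of them was called higher in E19 and 1 higher in E16. Among all 14790 detected genes, 613 (4.14%) were called higher in E19 and 555 (3.75%) higher in E16. With ratios centred on spike-in RNAs those counts were 389 and 809, and the calls of the 9 genes stayed at 1 and 1. The median of the 9 genes was 0.16, against 0.02 over all detected genes. With spike-in centring, which lowers every ratio by 0.22, the medians were -0.06 for the 9 genes and -0.20 for all genes.

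**Figure D1:**
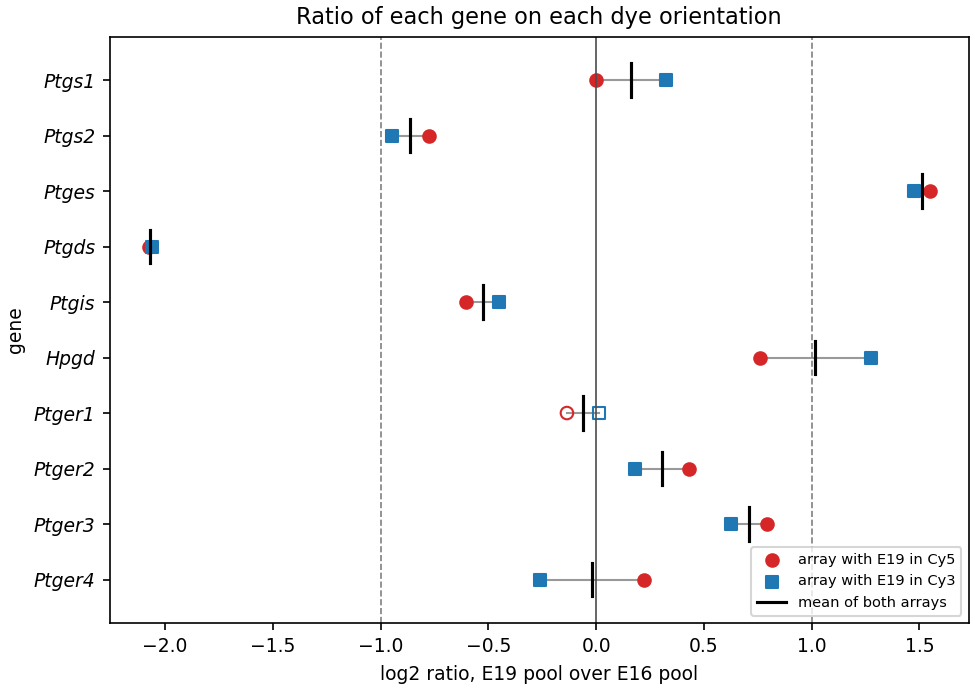
Log2 ratio of the E19 pool over the E16 pool for each gene, with a circle for the array with E19 in Cy5, a square for the array with E19 in Cy3 and a bar for their mean. Open symbols mark Ptger1, which was not well above background, and dashed lines mark 2-fold. Ptges (1.51) lies beyond the right line and Ptgds (-2.07) beyond the left line on both arrays, and Hpgd straddles the right line.

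Marker genes of skin were looked up beside the skin label. All 9 keratinocyte markers on the array and all 7 dermal fibroblast markers were detected, and the other 2 keratinocyte markers, Loricrin and Dsg1, were not on the array. Of all 18346 named genes, 14790 were detected, as were all 11 neuron and glia markers, so detection alone could not check the label. In each channel 71.5% to 74.3% of 43379 spots were well above background. The arrays correlated with r = 0.90 across genes, which are not independent of each other, and 3 genes followed the dye by 2-fold or more on both. The pools also differed in markers of other cell types. All 11 neuron and glia markers had a ratio below 0 and 8 of them were called higher in E16 (median -3.22), led by Fabp7 of neural progenitors (-4.87 ± 0.30), Chgb of secretory granules (-4.69 ± 0.02) and Stmn2 of neurons (-4.14 ± 0.35). Of 9 detected fat cell markers, 8 were called higher in E19 (median 3.54), led by Adipoq (4.87 ± 0.14), Fabp4 (4.81 ± 0.01) and Ucp1 (3.67 ± 0.30), and Lep was not detected. In RNA from whole tissue, fewer cells of a type and less RNA per cell cannot be told apart.

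The cyclooxygenases open the pathway. Ptgs1 encodes the constitutive form, and the array carried its probe at 10 spots. Its normalised log2 intensity was 10.84 and 10.99 in the E19 pool, against 10.84 and 10.66 in the E16 pool. The ratios were 0.00 and 0.33, with a mean of 0.16 ± 0.23, so the spread between the arrays exceeded the mean. On the array with E19 in Cy5, 9 spots were usable and ranged from -0.07 to 0.04, with 5 above 0 and 4 below. On the array with E19 in Cy3, 8 spots were usable, and all 8 lay above 0, between 0.25 and 0.44. The spots of each array were tight (SD 0.03 and 0.06), and those of one array did not overlap with those of the other. With spike-in centring the mean of Ptgs1 turned to -0.06.

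Ptgs2 encodes the inducible cyclooxygenase, known from inflamed and wounded skin. It had 10 spots of one probe and 1 spot of another. The probe with 10 spots read 9.21 and 9.08 in the E19 pool, against 9.99 and 10.02 in the E16 pool, so the lower stage was E19 on both arrays. The ratios were -0.78 and -0.95 (mean -0.86 ± 0.12), or 1.71-fold and 1.93-fold higher in E16. All 10 usable spots of the first array and all 9 of the second lay below 0, and 1 spot of the second array passed 2-fold. The spots ranged from -0.82 to -0.67 with E19 in Cy5 and from -1.02 to -0.90 with E19 in Cy3. Spike-in centring gave -0.99 and -1.16 (mean -1.08), and median centring gave -0.48 and -1.26. Ptgs2 was therefore the same way round on both dyes but was not called. The single spot of the other probe was not well above background in either pool on either array: its mean signal was 76.4 and 41.6 in the E19 pool and 47.0 and 85.6 in the E16 pool, beside negative control spots with median signals of 57.5 and 37.6 in E19 and 36.5 and 58.9 in E16. Replicate spots of a probe share 1 hybridisation and are not replicates of a stage.

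**Figure D2:**
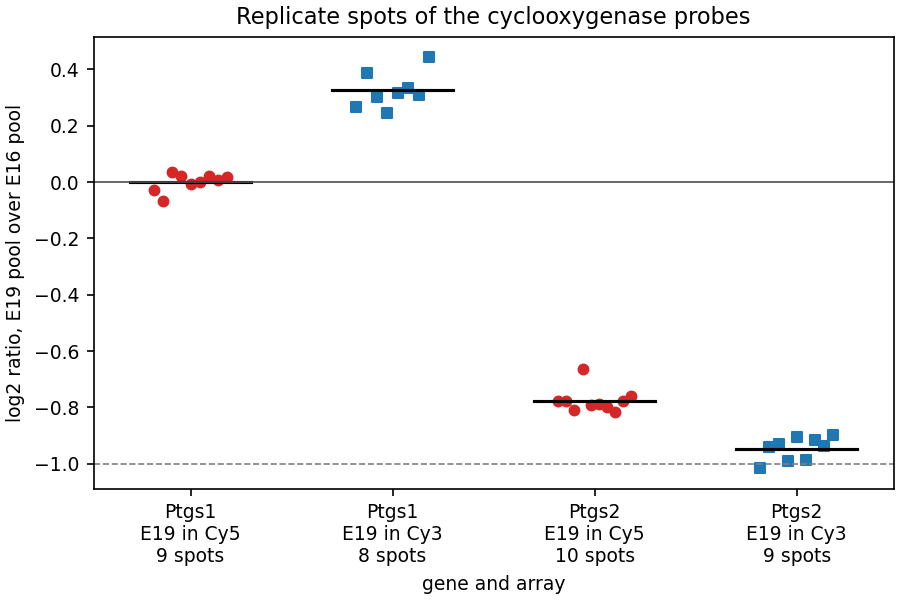
Log2 ratio of the E19 pool over the E16 pool at every usable spot of the Ptgs1 and Ptgs2 probes, by gene and array, with a bar for the mean and a dashed line at 2-fold. The Ptgs1 spots centre on 0.00 on one array and 0.33 on the other, and all Ptgs2 spots lie below 0 on both.

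The 250 bases before the annotated start are shown for Ptgs2, the gene of the inducible cyclooxygenase, and for Ptges and Ptgds, which were the called genes of opposite direction. They come from RefSeq on the GRCr8 assembly, are written 5′ to 3′ on the strand of the gene, and capitals mark motif matches. The windows are chr13:64713813-64714062 on the plus strand for Ptgs2, chr3:34586988-34587237 on the minus strand for Ptges and chr3:28682979-28683228 on the minus strand for Ptgds.
Ptgs2: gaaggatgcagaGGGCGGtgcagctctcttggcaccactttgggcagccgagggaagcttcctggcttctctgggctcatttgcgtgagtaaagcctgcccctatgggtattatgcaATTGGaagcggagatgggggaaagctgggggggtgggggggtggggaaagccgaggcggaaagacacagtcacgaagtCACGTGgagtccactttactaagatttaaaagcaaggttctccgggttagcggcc
Ptges: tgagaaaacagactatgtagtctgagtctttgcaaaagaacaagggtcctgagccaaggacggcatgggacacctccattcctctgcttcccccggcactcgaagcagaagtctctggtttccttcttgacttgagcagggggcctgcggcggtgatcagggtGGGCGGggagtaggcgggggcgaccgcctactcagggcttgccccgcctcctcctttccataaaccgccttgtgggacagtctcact
Ptgds: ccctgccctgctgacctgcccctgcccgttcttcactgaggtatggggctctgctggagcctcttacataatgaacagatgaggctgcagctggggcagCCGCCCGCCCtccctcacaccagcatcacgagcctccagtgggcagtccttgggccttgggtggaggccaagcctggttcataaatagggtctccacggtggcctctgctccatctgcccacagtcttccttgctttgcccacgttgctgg
In these windows 6 motifs were searched on both strands, namely a TATA box (TATAAA), a GC box (GGGCGG), a cAMP response element (TGACGTCA), an AP-1 site (TGANTCA), an E-box (CACGTG) and a CCAAT box (CCAAT). The Ptgs2 window held an E-box that began 55 bases before the start, a CCAAT box on the opposite strand at 133 bases and a GC box at 238 bases. The Ptges window held 1 GC box at 87 bases, and the Ptgds window held 2 overlapping GC boxes on the opposite strand at 151 and 147 bases. A GC box was present in 30.5% of 33469 RefSeq promoter windows of the same length, a CCAAT box in 34.0% and this E-box in 5.59%. The other motifs, TATAAA (12.9% of windows), TGACGTCA (1.59%) and TGANTCA (6.34%), were not in these letters. The base composition was 57.2% G and C for Ptgs2, 58.8% for Ptges and 62% for Ptgds, against a median of 51.2% over all windows. These matches describe the sequence and are not evidence of binding. Entries were found for 9 of the 10 genes, and Ptgis had none.

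Of the 3 terminal synthases, Ptges read higher in E19, and Ptgds and Ptgis read lower in E19. Ptges encodes the microsomal synthase that acts downstream of the inducible cyclooxygenase. Its probe read 12.83 and 12.55 in the E19 pool, against 11.29 and 11.08 in the E16 pool. The ratios were 1.55 and 1.47 (mean 1.51 ± 0.05), or 2.92-fold and 2.77-fold on the separate arrays. Only 265 of the 14790 detected genes had a higher mean ratio. With median centring in place of loess, an intensity-dependent correction of the dyes, Ptges read 1.93 and 0.98 and was no longer past 2-fold on both arrays. Ptges was thus higher in E19 in the same pools in which Ptgs2 read lower in E19. Of 9 detected keratinocyte markers, 5 were called higher in E19 and 4 were not (median 1.58), with 1 called under median centring and 3 under spike-in centring. All 9 had a mean above 0, although on the array with E19 in Cy3 Krt15 read -0.10. The called markers included the envelope crosslinking enzyme gene Tgm3 (2.65 ± 0.31), while Krt14 read 3.27 on one array and 0.73 on the other and Krt10 was at 1.87 ± 1.04. The summed intensity of the 9 markers was 1200670 and 1280020 in the E19 pool, against 263254 and 716656 in the E16 pool. A sum over probes follows its brightest members, here keratin probes whose E16 levels differed between the arrays (15.00 and 17.33 for Krt14). The part of these markers in the ratio of Ptges was not tested.

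Ptgds encodes the lipocalin-type synthase of prostaglandin D, a secreted protein that is abundant in the membranes around the brain. Its probe read 7.926 and 7.877 in the E19 pool, against 10.001 and 9.937 in the E16 pool. The ratios were -2.08 and -2.06 (mean -2.07 ± 0.01), the closest pair among the 9 genes, and 124 detected genes had a lower mean ratio. The spot was well above background in both pools, with a mean signal of 319 and 116 in the E19 pool over local backgrounds of 54.5 and 34.0, and of 666 and 1695 in the E16 pool over backgrounds of 35.5 and 55.0. Because the offset used in the background correction pulls dim signals together, the size depended on it: the ratio was -2.39 without the offset, and the processed signals of Feature Extraction gave -2.55. The authors' deposited table also gave -2.55, a 5.84-fold difference. The named genes closest to Ptgds in the ratios of both arrays were Shank2 (-2.08 ± 0.04), Lrrc23 (-2.05 ± 0.04) and Dnajc6 (-2.03 ± 0.06), at distances of 0.03, 0.04 and 0.09 on the log2 scale.

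Markers of neural tissue moved in the direction of Ptgds, as did the detected genes of a list for its covering membranes. The 11 neuron and glia markers had a summed intensity of 6105 and 6131 in the E19 pool, against 53955 and 53707 in the E16 pool. Of 7 genes listed for the leptomeninges, the thin membranes around the brain and spinal cord, 4 were detected and 3 were not on the array. All 4 were below 0 and 2 were called higher in E16, namely Ttr (-2.01 ± 0.51) and the transporter gene Slc6a13 (-1.33 ± 0.29). Ttr encodes transthyretin and is not specific to the leptomeninges, so its ratio cannot be read as theirs. Whether the other detected genes of this list are specific to those membranes in a skin sample was not tested. Aldh1a2, which makes retinoic acid, read -0.98 and -1.03 on the separate arrays, and Crabp2, which binds retinoic acid, was at -0.25 ± 0.22. Median centring left 1 of the 4 called and spike-in centring 3. The summed intensity of the 4 was 42257 and 42850 in the E19 pool, against 58019 and 48429 in the E16 pool, and nearly all of it came from the Crabp2 probe, which was not called. The part of the neural and leptomeningeal markers in the ratio of Ptgds was not tested.

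Ptgis encodes prostacyclin synthase, a cytochrome P450 enzyme known from vessel walls. Its probe read 11.87 and 11.79 in the E19 pool, against 12.47 and 12.24 in the E16 pool. The ratios were -0.60 and -0.45 (mean -0.53 ± 0.11), a 1.44-fold difference towards E16 that was not called. Median centring gave Ptgis -0.22 and -0.95. Of 9 endothelial markers 8 were above 0 and Vwf was at -0.0028 ± 0.18, with a median of 0.45 and 0 called. With spike-in centring 7 were above 0 and 2 below. Their largest ratios were those of Plvap (0.86 ± 0.10), Pecam1 (0.67 ± 0.19) and Tie1 (0.60 ± 0.29). Of 5 detected smooth muscle markers 3 were above 0 and 2 below, with a median of 0.03, and Tagln was called higher in E16 (-1.54 ± 0.30), beside Cnn1 (-0.97 ± 0.12) and Myh11 (0.95 ± 0.17). With median centring the smooth muscle median was -0.02 and 0 were called, and with spike-in centring it was -0.18 and 2 were called higher in E16. The part of endothelial and smooth muscle markers in the ratio of Ptgis was not tested.

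**Figure D3:**
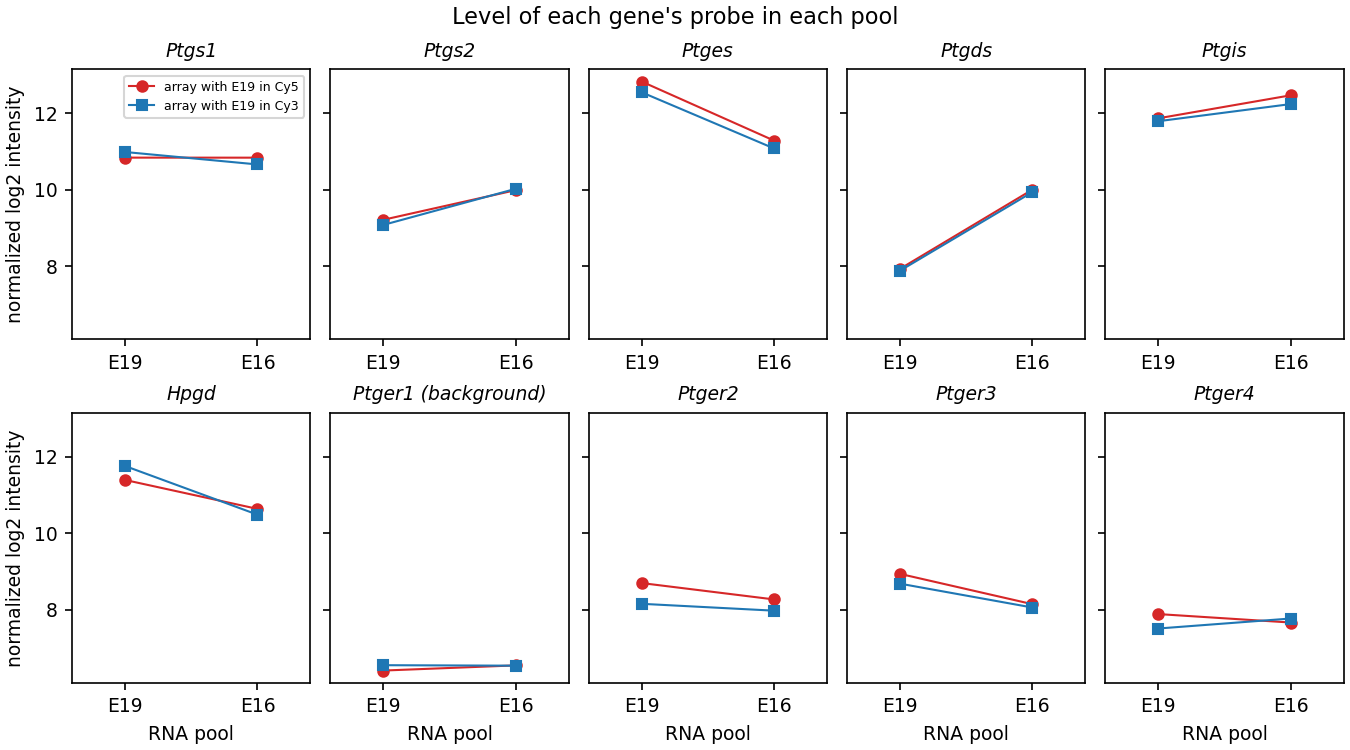
Normalised log2 intensity of each gene's probe in the E19 pool (left) and the E16 pool (right), with 1 line for each array. Lines fall towards E16 for Ptges and Hpgd and climb towards E16 for Ptgds, Ptgs2 and Ptgis, and the Ptger1 panel shows background. Levels of different probes are not comparable with each other.

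Hpgd encodes hydroxyprostaglandin dehydrogenase, which carries out the first step of prostaglandin breakdown. Its probe read 11.40 and 11.76 in the E19 pool, against 10.64 and 10.49 in the E16 pool, so E19 was higher on both arrays. The ratios were 0.76 and 1.28 (mean 1.02 ± 0.37), or 1.69-fold and 2.42-fold. It passed 2-fold on the array with E19 in Cy3 only and was not called, although its mean was 2.02-fold. Median centring gave Hpgd 1.11 and 0.82, past 2-fold on the array with E19 in Cy5 only. The authors' deposited table, which gives 1 combined ratio per sequence, had it at 2.03-fold.

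The EP receptors for prostaglandin E showed smaller ratios. Ptger1 encodes EP1, which signals through calcium. It was not well above background in either pool, with a mean signal of 78.5 and 49.7 in the E19 pool and of 52.4 and 97.5 in the E16 pool, and has no ratio here. Ptger2 encodes EP2, which raises cyclic AMP. It read 8.70 and 8.15 in the E19 pool, against 8.27 and 7.97 in the E16 pool. Its ratios were 0.43 and 0.18 (mean 0.30 ± 0.18), and the levels of the pools overlapped across the arrays. With spike-in centring the mean was 0.09.

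Ptger3 encodes EP3, which mainly lowers cyclic AMP. It read 8.94 and 8.68 in the E19 pool, against 8.14 and 8.06 in the E16 pool. Its ratios were 0.79 and 0.62 (mean 0.71 ± 0.12), a 1.64-fold difference towards E19 that was the largest among the detected EP receptor genes and was not called. Its signals were dim, between 229 and 656 in the E19 pool and between 172 and 435 in the E16 pool, and its ratio was 0.85 without the offset, and the processed signals of Feature Extraction gave 0.98. Ptger4 encodes EP4, the other receptor that raises cyclic AMP. It read 7.88 and 7.51 in the E19 pool, against 7.66 and 7.77 in the E16 pool. The ratios had opposite signs, 0.22 and -0.26 (mean -0.02 ± 0.34), so no direction was measured. On the second array the local background of its E16 channel was 99, above the median of 59 in that channel.

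**Figure D4:**
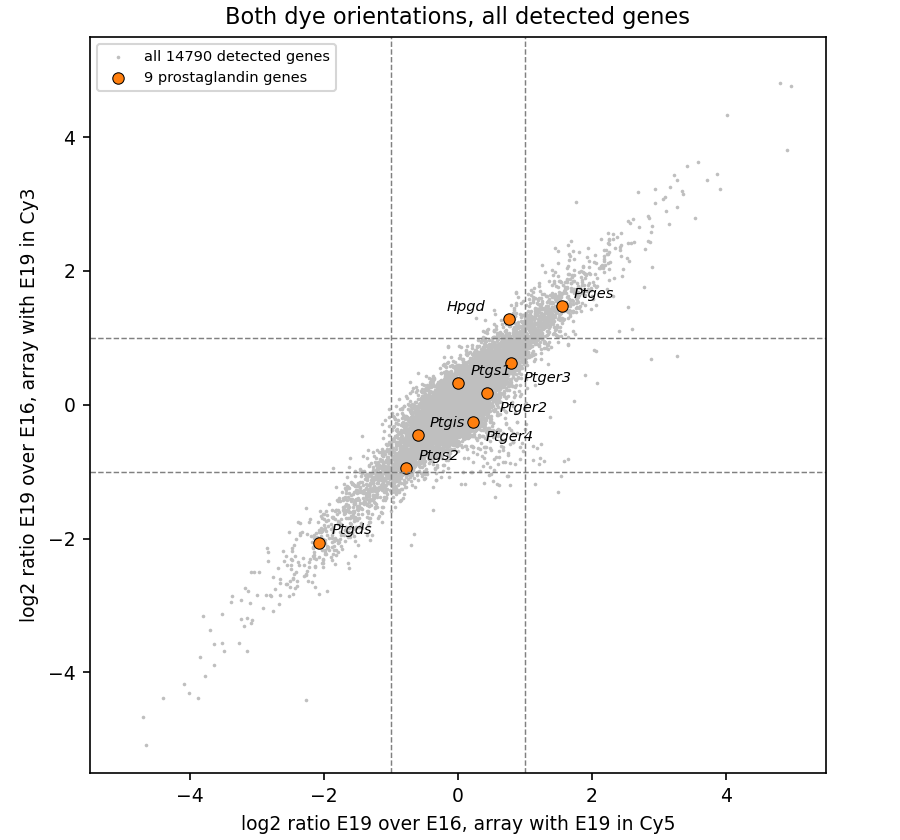
Log2 ratio of the E19 pool over the E16 pool on the array with E19 in Cy3 (vertical) against the array with E19 in Cy5 (horizontal), for all 14790 detected genes in grey and the 9 detected prostaglandin genes in orange. Dashed lines mark 2-fold. Ptges lies in the upper right corner field and Ptgds in the lower left one, and Hpgd and Ptger4 lie away from the diagonal.

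Ordered by mean ratio, the genes ran from Ptges (1.51) through Hpgd (1.02), Ptger3 (0.71), Ptger2 (0.30), Ptgs1 (0.16), Ptger4 (-0.02), Ptgis (-0.53) and Ptgs2 (-0.86) to Ptgds (-2.07). Among neighbours in this order, the ranges of the 2 arrays overlapped between Hpgd and Ptger3, between Ptger2 and Ptgs1 and between Ptgs1 and Ptger4, so the order of these pairs was not resolved. The ranges of the other neighbours did not overlap with loess. Under median centring they overlapped for each of these other pairs except Ptgs2 and Ptgds, with Ptges at 1.93 and 0.98 and Hpgd at 1.11 and 0.82. Each range spans 2 technical readings of the same pools. Ptges stood above and Ptgds below every other gene of the set on both arrays.

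As context, 38 further genes of the prostanoid and leukotriene pathway were used, in 5 chosen lists that do not cover all of it. Of these, 36 were on the array and 33 were detected, 5 were called higher in E19 and 0 higher in E16. Their median was 0.41, with 29 above 0 and 4 below. Among all 14790 detected genes, 4.14% were called higher in E19 and 3.75% higher in E16. Of those genes, 7769 lay above 0 and 7021 below. With spike-in centring the median of the 33 was 0.19, with 22 above 0 and 11 below, and their calls stayed at 5 and 0. Of all genes, 4277 were then above 0 and 10513 below. The 9 genes described above, without spike-in centring, had a median of 0.16 and calls of 1 and 1.

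The other synthases included the counterpart of Ptgds. Hpgds, the haematopoietic synthase of prostaglandin D, read 13.25 and 13.31 in the E19 pool, against 10.81 and 10.74 in the E16 pool. Its ratios were 2.44 and 2.57 (mean 2.50 ± 0.10), 5.68-fold towards E19, so both synthases of prostaglandin D passed the rule in opposite directions. They did so under each of the 11 alternative settings run. Hpgds is made by mast cells, and of 10 detected mast cell markers, Hpgds included, 6 were called higher in E19 (median 1.12), among them the carboxypeptidase gene Cpa3 (1.47 ± 0.21) and the tryptase gene Tpsb2 (1.34 ± 0.06). Median centring and spike-in centring each left 3 mast cell markers called, and the mean over detected probes left 5. Of the 10 markers, 8 were above 0 and 2 below. Another tryptase gene, Tpsab1, was at -0.03 ± 0.03, Kit was at -0.06 ± 0.04 and Fcer1a was not detected. Summed over the mast cell markers, Hpgds among them, intensity was 46888 and 49447 in the E19 pool, against 20626 and 19916 in E16. The part of these markers in the ratio of Hpgds was not tested. Of 10 macrophage markers 2 were called higher in E19 (median 0.55), or 1 with median centring, namely Lyz2 (1.64 ± 0.08) and Cd163 (1.62 ± 0.06), and the complement gene C1qa was below them at 0.69 ± 0.09. The remaining synthases were not called. Prxl2b, which makes prostaglandin F, was at 0.90 ± 0.02, and the median of the 6 detected was 0.25.

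The breakdown and transport list had a median of 0.70 over 6 genes, with 6 above 0 and 2 called higher in E19. It also held Ptgfrn (0.28 ± 0.12), which encodes a regulator of the prostaglandin F receptor and is neither a breakdown nor a transport gene. Ptgr1, which encodes a reductase that acts after Hpgd, had ratios of 1.64 and 2.39 (mean 2.02 ± 0.53). The carbonyl reductase gene Cbr3 was at 1.61 ± 0.15. Like Hpgd, Ptgr1 had the higher ratio on the array with E19 in Cy3. Under median centring both were higher on the array with E19 in Cy5, with Ptgr1 at 2.17 and 1.78. The other prostanoid receptors had a median of 0.68 over 5 genes and 0 called. Ptgfr, the receptor for prostaglandin F, was at 1.04 ± 0.21, and Ptgdr, a receptor for prostaglandin D, was at 0.80 ± 0.04. In the E16 pool both passed the background test on just 1 of the 2 arrays. With the scanner program's own processed signals they read 2.62 and 2.18 and passed the rule.

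Phospholipases, which release arachidonic acid, had a median of 0.29 over 7 detected genes and 0 called. Pla2g5 was at 0.45 ± 0.01, or 1.29 with Feature Extraction's processed signals, and Pla2g3 was at 0.41 ± 0.16. The listed lipoxygenase and leukotriene genes had a median of 0.53 over 9 detected genes, of which 2 were called higher in E19. These were Ltb4r, a receptor for leukotriene B (1.69 ± 0.09), and the epidermal lipoxygenase gene Aloxe3 (1.34 ± 0.04). Ltb4r2 of the same list had a mean of 1.05 ± 0.08 but read 0.99 with E19 in Cy3 and was not called. Under median centring Ltb4r2 was called and Aloxe3 was not. Ltb4r2 was also called without the offset, without background subtraction, with Feature Extraction's processed signals (2.30) and in the authors' deposited table. The lipoxygenase gene Alox15b, which the list left out, was called higher in E19 too (1.72 ± 0.12). Dermal fibroblast markers, with a median of 0.72, had 1 of 7 called higher in E19, Dcn (1.36 ± 0.04), beside Dpt (0.97 ± 0.08) and Col3a1 (0.90 ± 1.19). Of the 7, 6 were above 0 and Pdgfra was below 0 on both arrays (-0.39 and -0.23). The array with E19 in Cy5 alone had 4 fibroblast markers past 2-fold (median 1.02) and the array with E19 in Cy3 alone had 2 (median 0.29), and 0 were called under median centring.

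**Figure D5:**
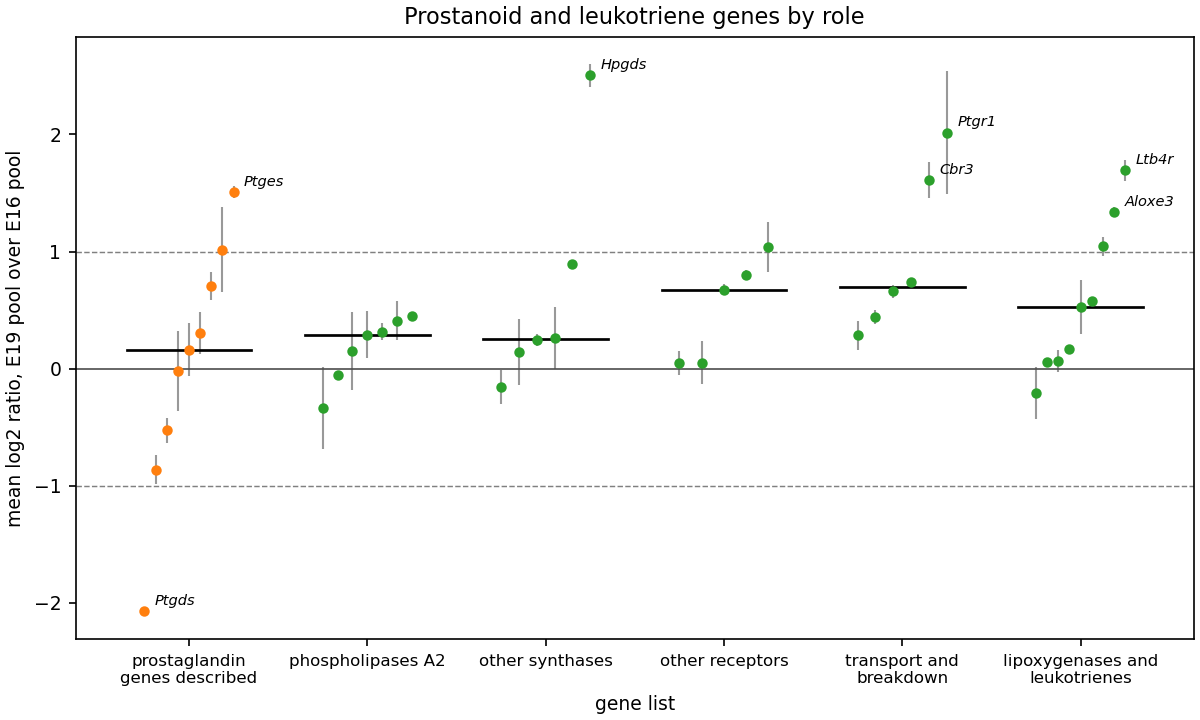
Mean log2 ratio of the E19 pool over the E16 pool for each detected gene, by gene list, with error bars for the SD of the 2 arrays, a thick bar for the list median and dashed lines at 2-fold. The prostaglandin genes described (orange) span -2.07 to 1.51, and of the other lists (green) the medians lie between 0.25 and 0.70 with no gene below the lower line.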

How the data were processed

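Two-colour arrays measured 1 RNA pool per stage. Per the file headers, spot intensity and local background came from Agilent Feature Extraction 9.5.1.1, which also wrote processed intensity values, their log10 ratio and a p-value. The authors' deposited table lists 36824 sequences with the log10 ratio and p-value of both arrays combined, without the method. Across genes its ratio correlated with the E19 in Cy5 array (r = 0.97) and inversely with Cy5 over Cy3 of the other (r = -0.97), which set its direction.

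Here, with limma 3.58.1 in R 4.3.3, background was corrected by normexp with an offset of 50, which understates the ratios of dim probes. Ratios were loess-normalised within each array, levels were scaled with Aquantile, and control and outlier spots were given no weight. Saturated spots stayed. Ratios were turned to E19 over E16 and averaged over spots, then over arrays. A gene took its brightest detected probe. Of 41012 probes, 10735 were named by accession, 5571 by symbol, 3729 by synonym and 3371 by the name in the files, through RefSeq on GRCr8; 17606 had no name. With 1 pool per stage there is no test, and the number of arrays limits precision. Both arrays lay on 1 slide, so no batch was testable.

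The genes, lists and rule were chosen with earlier results of these data known. Named genes were the 10 prostaglandin genes, the pathway genes past the rule or the largest 2 of a list with fewer, up to 3 markers per cell type and the 3 genes nearest to Ptgds. Kit, Fcer1a, Tpsab1, Lep, Krt15, Crabp2, Pdgfra, Vwf, Ltb4r2, Ptgfrn and Alox15b lie outside this rule and were picked with their values known. The fit was tested on simulated data, and Python 3.11.15 with numpy 2.4.6, pandas 2.3.3 and matplotlib 3.10.9 was used. Alternatives covered background, normalisation, centring, probe choice, filters, single arrays, fold limits and the authors' ratio.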

Additional observations from a re-analysis of the deposited data

Results flagged for a closer look

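A probe named TC559337 in the files was described there as part of the EP3 receptor but did not carry the name Ptger3, so it entered no comparison. It was well above background in both pools on both arrays, with a mean signal of 1957 and 830 in the E19 pool, against 532 and 1407 in the E16 pool. Its ratios were 0.71 and 0.93, with a mean of 0.82 ± 0.15, beside 0.71 ± 0.12 for the Ptger3 probe. Both probes were above 0 on both arrays and neither was called.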

How the results depend on the processing

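At 2-fold, 1 prostaglandin gene was called higher in E19 and 1 in E16, and of the pathway lists 5 and 0, and of all genes 613 and 555. The E16 call, Ptgds, held under each alternative run at 2-fold, with ratios from -2.55 to -2.06. Median centring left 0 prostaglandin genes higher in E19, since Ptges read 0.98 on 1 array, and 368 of all genes. Single arrays gave 1 to 2 prostaglandin genes higher in E19, the second being Hpgd with E19 in Cy3. The authors' deposited ratio gave 2 (Hpgd added), 9 pathway genes, and 1198 and 999 of all genes higher in E19 and E16. Feature Extraction's processed signals gave 9 pathway genes, and 1014 and 889 of all genes. Without the normexp offset 8 pathway genes were higher in E19, and with spike-in centring 389 of all genes. By construction, 1.5-fold gave 3 and 2 prostaglandin genes, 12 pathway genes, and 1413 and 1135 of all genes, and 3-fold gave 0 prostaglandin genes higher in E19, 3 pathway genes, and 178 and 230 of all genes. The cause of the other changes was not tested. Over 11 alternatives, 83 values of the 9 detected genes stayed within the SD of the arrays, 16 moved further and 0 called ratios changed sign. The count of 83 overstates the agreement, since a single array lies within that SD of the mean by construction. Averaging detected probes, keeping dim probes and leaving out saturated spots also returned the main ratio unchanged for all 9 genes. Of uncalled genes, Ptgs1 turned to -0.06 with spike-in centring, and Ptger4 to 0.05 with Feature Extraction's processed signals and in the authors' deposited table and to 0.03 with median centring. Precision is limited by 1 pool per stage and, for Ptger2, Ptger3, Ptger4 and Ptgds, by signals near background.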
